A study of Homo sapiens with 6 samples.

Results

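Human mature miRNAs are numbered in the order in which they enter the miRBase registry, so that high numbers mark late entries, many of them found only by deep sequencing. Late-numbered miRNAs, here those named hsa-miR with a number of 3000 or more, were examined in small RNA-seq libraries of A549 cells, an established line from a human lung adenocarcinoma. The deposited table lists 2588 mature miRNA names once rows of the same name are summed, and 1442 of these are late-numbered. The 107 described here were selected on their deposited values, and had a value of 1 or more in 3 or more of the 6 libraries. miR-3687, miR-4485-3p and miR-7641 also reached it and were left out beforehand, as were miR-3648 and miR-4485-5p, which did not. Since the members were chosen by the values of all 6 libraries, the presence of the members is a description and not a test.

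The libraries came from 3 samples of parental A549 cells (Ctrl) and 3 samples of A549 cells with the *MIR21* locus deleted by CRISPR/Cas9 (*MIR21*-KO), all harvested 48 h after seeding. *MIR21* encodes miR-21-5p, the dominant miRNA of these cells, and its passenger miR-21-3p. The study selected the deleted cells as clones grown from single cells, and the labels do not say whether the 3 *MIR21*-KO libraries share a clone or whether replicates came from separate cultures. P-values therefore measure the spread between these libraries, which may be technical. Deposited values are TMM-scaled counts per 1000000, with 1 scaling factor per library. The libraries held 5577287 to 9768152 miRNA reads. miR-21-5p fell by 13.02 on the log2 scale in *MIR21*-KO (adjusted p = 1.05e-06, limma with Benjamini-Hochberg adjustment), as the labels state.

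A miRNA is cut from a hairpin of its primary transcript by the nucleases Drosha and Dicer. Each hairpin can yield a product from its 5p arm and its 3p arm, and usually 1 of them is loaded into an Argonaute protein and retained. Target choice depends mainly on the seed, bases 2 to 8 of the mature RNA. Some hairpins lie within introns of host genes, and in mirtrons the splicing machinery rather than Drosha makes an end of the hairpin. Numbers above 3000 hold both well-formed miRNAs of restricted tissues and entries that rest on few reads.

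RefSeq (GRCh38.p14) gave a mature sequence for 91 of the 107 members. The most abundant of them are shown first, since they carry most of the late-numbered reads. Capitals mark the seed.
miR-3158-3p: aAGGGCUUccucucugcaggac
miR-7706: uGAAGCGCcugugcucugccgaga
miR-7974: aGGCUGUGaugcucuccugagccc
miR-3615: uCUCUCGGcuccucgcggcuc
miR-4521: gCUAAGGAaguccugugcucag
miR-4746-5p: cCGGUCCCaggagaaccugcaga
miR-3909: uGUCCUCUagggccugcagucu
None of these seeds recurs among them. miR-4326, miR-4664-3p and miR-6842-3p also rank among the 10 most abundant.

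Over the 91 sequences the median length was 22 bases, with a range from 18 to 24. The median GC content was 52.2%, against 47.6% over the other tested miRNAs with a sequence. The first base was U in 62.6% of the members and in 38.4% of the others. A run of 4 G (GGGG) occurred in 4 members, or 4.40%, and in 6.87% of the others.

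Shared seeds are shown next, because they tie 5 members to tested miRNAs with other names. miR-4429 has the seed of miR-320b, miR-320c and miR-320d, relatives of miR-320a, whose hairpin is made without Drosha. miR-3129-5p has the seed of miR-199a-3p, and miR-3118 that of miR-134-5p. miR-3176 shares its seed with miR-3922-3p, another member.
miR-4429: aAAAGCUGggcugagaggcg
miR-320b: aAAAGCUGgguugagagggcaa
miR-3129-5p: gCAGUAGUguagagauugguuu
miR-199a-3p: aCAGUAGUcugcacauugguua
miR-3118: uGUGACUGcauuaugaaaauucu
miR-134-5p: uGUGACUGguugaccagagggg
miR-3176: aCUGGCCUgggacuaccgg
miR-3922-3p: uCUGGCCUugacuugacucuuu
Levels within these seed groups were unequal. The mean deposited value was 1.19 for miR-4429 beside 247 for miR-320b, 55.8 for miR-320c and 9.81 for miR-320d. miR-3118 had a mean value of 12.7, and miR-134-5p 273. miR-3129-5p had 3.11, above miR-199a-3p with 1.85. miR-3922-3p had 16.8 and miR-3176 had 6.44.

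The sequences of 8 further members are given because of where they end. Of the 91 members with a position, these 8 (8.79%) ended within 3 bases of the 3′ end of an annotated intron, which is where the 3p product of a mirtron ends. The same held for 1 of the other tested miRNAs, or 0.222% of those with a position. Capitals mark the last 2 bases here.
miR-3605-3p: ccuccguguuaccuguccucuAG
miR-5010-3p: uuuugugucucccauuccccAG
miR-6515-3p: ucucuucaucuaccccccAG
miR-6716-3p: uccgaacucuccauuccucuGC
miR-6772-3p: uugcuccugacucugugcccaCA
miR-6777-3p: uccacucuccuggcccccAG
miR-6806-3p: ugaagcucugacauuccugcAG
miR-6868-3p: uuccuucuguugucugugcAG
In 6 of the 8 the last base of the miRNA was the last base of the intron and the miRNA ended in AG, the dinucleotide that closes most introns. miR-6772-3p ended 1 base and miR-6716-3p 2 bases away. AG was the last dinucleotide of 13.2% of all member sequences and of 6.65% of the other tested sequences. The match is one of position, and how the hairpins are cut was not measured.

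The introns concerned ranged widely in length. miR-6515-3p closes an intron of 88 bases in *CALR*, which encodes the chaperone calreticulin, and miR-6777-3p an intron of 89 bases in *SREBF1*, which encodes a sterol-responsive transcription factor. miR-6806-3p lies at the end of an intron of 7637 bases in *ZSCAN22*. miR-5010-3p in *ATP6V0A1*, a gene for a subunit of the vacuolar proton pump, was the most abundant of the 8. Its deposited values were 15.0, 17.3 and 16.9 in Ctrl against 18.7, 13.3 and 12.9 in *MIR21*-KO. These values overlapped and lay closer together than those of most abundant members. The mean values of the other 7 ran from 1.19 for miR-6515-3p to 4.08 for miR-6806-3p, with 0 to 46 reads per library.

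The libraries split in a way that the conditions do not follow. The first principal component of the 497 tested miRNAs with lower numbers, let-7 included and members left out, held 63.4% of their variance. It placed Ctrl 1, Ctrl 2 and *MIR21*-KO 3 on the same side (first set) and Ctrl 3, *MIR21*-KO 1 and *MIR21*-KO 2 on the other (second set). Each set thus holds both conditions, and the labels name nothing that separates the sets. Whether culture, RNA or library preparation moves with them was not tested.

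Reads of the 107 members were counted in each library. They numbered 11696, 11372 and 11152 in Ctrl 1 to 3 and 17286, 14106 and 22800 in *MIR21*-KO 1 to 3. Since miR-21 takes most Ctrl reads, the members are best given as a share of the miRNA reads other than miR-21. This share was 0.494% (95% Wilson interval 0.485% to 0.503%), 0.585% (0.574% to 0.596%) and 0.376% (0.369% to 0.383%) in Ctrl. In *MIR21*-KO it was 0.199% (0.196% to 0.202%), 0.195% (0.192% to 0.198%) and 0.409% (0.404% to 0.414%). The intervals cover counting error only. The 3 libraries of the first set held the highest shares, and the conditions overlapped because *MIR21*-KO 3 lay above Ctrl 3.

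**Figure D1:**
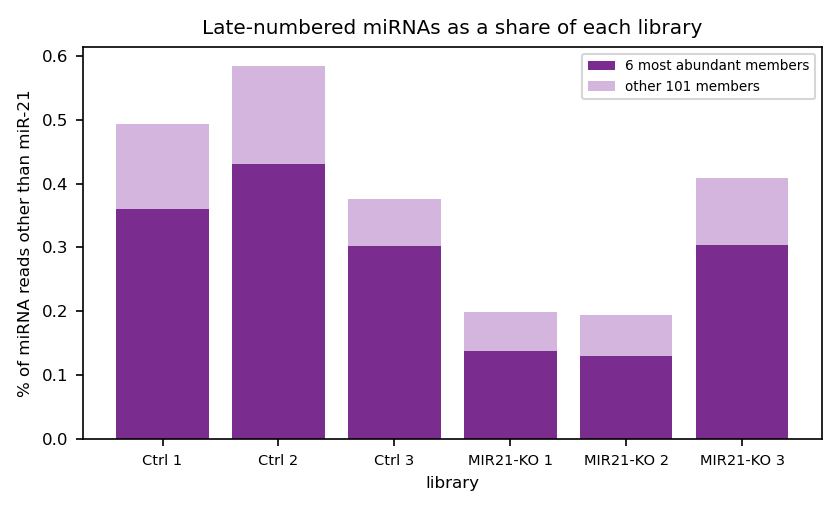
The bars give the reads of the 107 late-numbered miRNAs as a percentage of all miRNA reads other than miR-21 (y axis) in each library (x axis), with the 6 most abundant members in the dark part. The shares run from 0.195% in *MIR21*-KO 2 to 0.585% in Ctrl 2, and the dark part is the larger in every library.

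A few miRNAs made up most of these reads. The 6 most abundant, miR-3158-3p, miR-7706, miR-7974, miR-3615, miR-4521 and miR-4326, held 67.0% to 80.4% of the member reads of a library. Only these 6 had a mean value above 100, and 21 members had a mean of 10 or more. The mean value was under 5 for 76 members. The median of the mean values was 2.53 over the members and 23.9 over the 497 others.

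Most members were nevertheless seen throughout. A read was found for 103 to 107 of the 107 in each library, and 100 had a read in all 6 libraries. At least 10 reads in every library were reached by 35 members. A value of 1 was reached in all 6 libraries by 49 members and in exactly 3 by 19. Of these 19, miR-4671-3p reached it in the 3 Ctrl libraries alone, and 3 members in the 3 *MIR21*-KO libraries alone (miR-3131, miR-4429 and miR-4804-5p). A value of 1 stood for 3.74, 3.70 and 7.09 reads in Ctrl 1 to 3 and for 13.9, 13.9 and 7.69 reads in *MIR21*-KO 1 to 3. The threshold therefore asked for fewer reads in Ctrl, and a count of 0 left more room there. The 7 library values of 0 allow up to 3 reads each, which is a value of 0.811 in Ctrl 2 and of 0.216 in *MIR21*-KO 2.

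Names at the lower end of this range were found most often. Of 282 names numbered from 3000 on but below 4000, 41 (14.5%) were members. The share was 32 of 506 (6.32%) for the numbers from there to 5000, 10 of 116 (8.62%) from there to 6000 and 24 of 538 (4.46%) beyond. In comparison, 43.4% of the 1146 names with lower numbers were tested. Among the 1332 late-numbered names that missed the threshold, 681 had no read in any library and 449 had 1 to 9 reads over all 6. Just inside the threshold, the third-highest library value was 1.04 for miR-4804-5p and 1.07 for miR-3622a-5p. Just outside, it was 0.988 for both miR-4446-3p and miR-3192-5p. miR-3192-5p had 4, 4 and 7 reads in Ctrl against 12, 11 and 5 in *MIR21*-KO, so the line between members and other names passed through miRNAs with reads in every library.

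Genomic positions were taken from RefSeq and the surrounding genes from GENCODE 29, both on GRCh38. Of the 91 members with a position, 54 lay in an intron of a gene on the same strand. For 12 others the hairpin overlapped an annotated exon of such a gene. A further 12 lay opposite a gene and 12 between genes. A miRNA with several loci was counted at its first position alone. miR-3158-3p and miR-3688-3p, which also have a copy in an intron, thus count as opposite a gene. miR-3130-5p, with a copy opposite a gene, counts as intronic. miR-6516-5p lay within *SCARNA16*, a small Cajal body RNA, and its reads cannot be told from fragments of that RNA. Of the 12 whose hairpin overlapped an exon, 9 have a sequence that occurs in a transcript of the gene models, and the same limit holds for them. The sequences of miR-3605-3p, miR-3940-3p and miR-5010-3p occur in none, and these mature miRNAs themselves lie in annotated introns.

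Among the abundant members, miR-3158 is encoded by 2 hairpins that overlap on opposite strands at chr10:101601417-101601497, within an intron of *DPCD* and opposite to it. Both yield the same miR-3158-3p, so the reads cannot be divided between the strands. miR-3130-5p and miR-3688-3p have the same arrangement, in *FASTKD2* and *RAPGEF2*. miR-7706 lies at chr15:85380639-85380662 in an annotated exon of *AKAP13*, a gene for a kinase-anchoring protein. miR-3615 lies at chr17:74748663-74748683 in an exon of *SLC9A3R1*, a gene for a scaffold protein of the cell membrane. miR-7974 lies at chr19:11495544-11495567 in an intron of *ZNF653*. miR-4521 lies at chr17:8186948-8186969 between annotated genes. miR-4746-5p lies at chr19:4445987-4446009 opposite *UBXN6*. miR-3909 lies at chr22:35335710-35335731 in an intron of *TOM1*.

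Some scarcer members sit in genes with known roles in the miRNA pathway or beside other miRNAs. miR-3173-5p lies in an intron of *DICER1*, whose product cuts miRNA hairpins. It had 8, 2 and 17 reads in Ctrl against 28, 35 and 5 in *MIR21*-KO. miR-3613-5p lies in an intron of *DLEU2*, the host transcript of miR-15a and miR-16-1. Its values were 19.5, 15.4 and 25.5 in Ctrl against 34.2, 33.8 and 17.3 in *MIR21*-KO, highest in the 3 libraries of the second set. In those libraries miR-16-5p was highest too, with 724, 645 and 727 in the second set against 112, 201 and 131 in the first. Of all tested miRNAs, 35.1% lay wholly higher in the second set. miR-16-5p is also made from a second locus, so its value does not belong to *DLEU2* alone.

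miR-3176 and miR-5587-3p both come from *CAPN15*, a calpain gene, with their hairpins 7909 bases apart on the same strand. miR-3176 had values of 8.81, 11.1 and 8.04 in Ctrl against 4.25, 3.82 and 2.60 in *MIR21*-KO. miR-5587-3p had 2.14, 1.08 and 0.282 in Ctrl against 0.144, 0.288 and 1.30 in *MIR21*-KO. The former parted by condition. The latter overlapped between the conditions and parted by library set, but it reached the threshold in the first set alone and so had to part there. Whether the neighbours share a pattern cannot be read from these values. miR-6777-3p lies 291 bases from *MIR33B* in *SREBF1*. It had 8, 13 and 4 reads in Ctrl against 7, 0 and 13 in *MIR21*-KO, whereas miR-33b-3p had 13, 27 and 131 in Ctrl against 74, 96 and 15 in *MIR21*-KO. miR-3065-5p, opposite *AATK*, had 5, 0 and 19 reads in Ctrl against 48, 41 and 5 in *MIR21*-KO. Its neighbour miR-1250-5p, 7241 bases away, had 3, 0 and 8 in Ctrl against 18, 15 and 9 in *MIR21*-KO.

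Arms were compared next. Of the 107 members, 46 are named 3p, 29 are named 5p and 32 carry no arm in their name. Of the 75 with a named arm, 73 have their other arm in the deposited table. Of these 73, 43 held over 90% of the reads of both arms of their hairpin, and for 11 of them the other arm had no read. Only 7 held less than 50% of those reads, each the scarcer arm of a hairpin with both arms among the members. A named arm is a member through its own value, so the threshold favours the richer arm of a hairpin. These counts are therefore a description, and they were not set beside those of all tested miRNAs. Among the abundant members the balance was extreme. miR-3158-3p held 99.8% to 100% of the reads of its hairpin name in each library, miR-4664-3p 96.7% to 100%, and miR-4746-5p and miR-6842-3p were without a read from the other arm.

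Both arms were members for 7 hairpins, namely miR-3129, miR-4671, miR-4677, miR-4709, miR-4796, miR-5699 and miR-6515. The arms of miR-4671 and miR-5699 are shown, with seeds in capitals, since their balance parted the library sets in opposite directions.
miR-4671-5p: aCCGAAGAcugugcgcuaaucu
miR-4671-3p: uUAGUGCAuagucuuuggucu
miR-5699-5p: uGCCCCAAcaaggaaggacaag
miR-5699-3p: uCCUGUCUuuccuuguuggagc
miR-4671 lies in an intron of *SLC35F3* and gave mostly its 5p arm, with 191 of its reads against 32 from the 3p arm. The 5p share was 91.4% (95% Wilson interval 81.4% to 96.3%), 92.0% (83.6% to 96.3%) and 57.7% (38.9% to 74.5%) in Ctrl. It was 66.7% (39.1% to 86.2%), 70.6% (46.9% to 86.7%) and 97.1% (85.5% to 99.5%) in *MIR21*-KO. The first set thus lay wholly above the second, and the conditions overlapped.

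miR-5699 lies in an intron of *DIP2C*. Its 5p share was 18.2% (5.14% to 47.7%), 30.0% (10.8% to 60.3%) and 46.9% (30.9% to 63.6%) in Ctrl against 53.8% (43.7% to 63.5%), 75.0% (66.2% to 82.1%) and 37.1% (23.2% to 53.7%) in *MIR21*-KO. Here the first set lay wholly below the second. The balance of miR-4796 and miR-6515 also parted the sets without overlap, which made 4 of the 7 hairpins. Over all 154 hairpins other than miR-21 with both arms tested, 66.2% did so, and 5.19% parted the conditions, which none of the 7 did. A share within a hairpin does not depend on the scaling of a library. miR-4677 kept the steadiest balance, with a 5p share of 5.84% to 11.8%.

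The change with *MIR21* deletion was then tested over all 607 miRNAs that met the threshold, with limma on log2(value + 1). The pseudocount of 1 understates the change of scarce members. No member was called at an adjusted p under 0.05, higher or lower. Over all tested miRNAs, 0 (0%) were called higher and 5 (0.824%) lower. The lowest adjusted p of a member was 0.226. At an unadjusted p under 0.05, 4 members were higher and 5 lower, where 6.75% and 4.45% of all tested miRNAs were. edgeR's quasi-likelihood test on the recovered reads also called 0 members, with 1.15% of all tested called lower and 0 higher. DESeq2 called 4 members lower and none higher, against 3.13% and 0.659% of all tested. Among the 4 was miR-4671-3p, which reached the threshold in Ctrl alone.

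The fold changes of the members centred near 0. Their median was -0.09 on the log2 scale, with 46 above 0 and 61 below, and they ran from -1.95 to 1.11. The median over all 607 was 0.24. The share of members with *MIR21*-KO and Ctrl libraries not overlapping was 12.1% (13 of 107), against 16.1% of all tested. In 6 members all *MIR21*-KO libraries lay above all Ctrl libraries (9.56% of all tested did), and in 7 they lay below (6.59% of all tested did). Scaled to the total of all miRNAs, where the loss of miR-21 raises every other share, 50 members lay wholly above and 1 below, as did 47.8% and 1.81% of all tested. Scaled to the total without miR-21, 4 members lay wholly above and 13 below, as did 23 and 68 of the 607 tested. At the deposited scaling without Ctrl 3 the counts were 10 members above and 30 below, where 27.8% and 17.3% of all tested lay so. Without *MIR21*-KO 3 they were 12 and 13, against 25.7% and 12.5% of all tested. The threshold has a part in these counts. It was reached in the 3 *MIR21*-KO libraries alone by 3 of the 6 higher members and in the 3 Ctrl libraries alone by 1 of the 7 lower ones, so these 4 had to differ, and the counts are no evidence of a change.

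**Figure D2:**
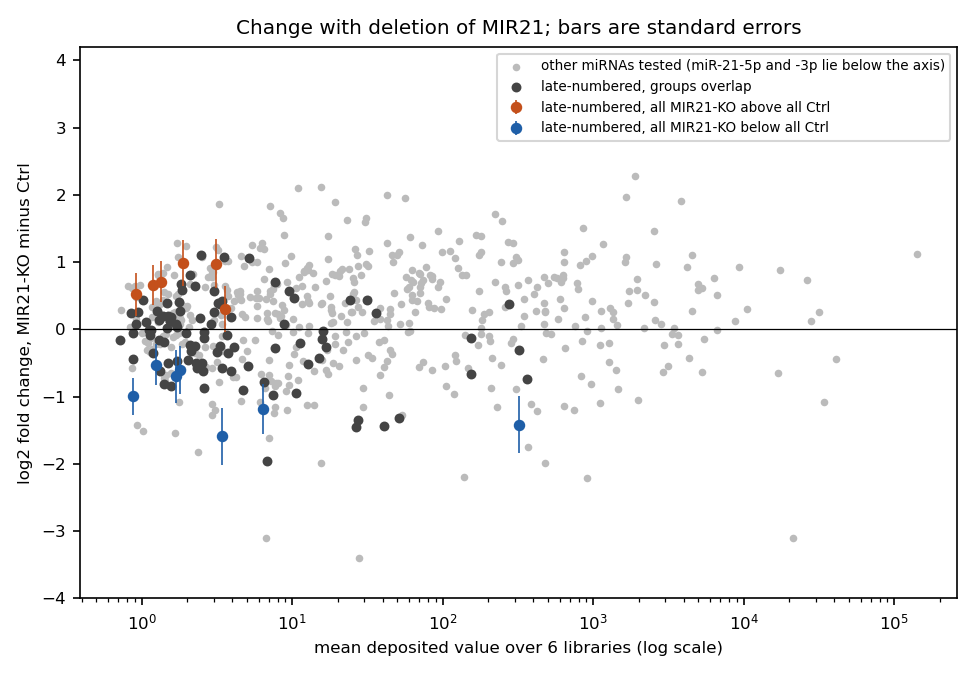
Each point is a miRNA with its mean deposited value over 6 libraries (x axis, log scale) and its log2 fold change of *MIR21*-KO over Ctrl (y axis), with standard errors for the 13 late-numbered miRNAs whose conditions did not overlap. The late-numbered miRNAs lie between -1.95 and 1.11, and the tested miRNAs with lower numbers, in grey, extend to higher levels and larger changes.

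miR-7974 was the abundant member with the clearest separation. Its deposited values were 473, 540 and 392 in Ctrl against 199, 132.9 and 198 in *MIR21*-KO. Every *MIR21*-KO library lay below every Ctrl library, and the same was true per 1000000 reads other than miR-21 (748, 1028 and 936 against 319, 254 and 273). Scaled to the total of all miRNAs the difference was near 0, with a log2 fold change of -0.033 (adjusted p = 0.951 with limma). The log2 fold change came to -1.41 (standard error 0.42, adjusted p = 0.290 with limma). DESeq2 gave an adjusted p of 0.00265. With miR-5010-3p and miR-4425 it was among the 3 of the 21 members with a mean value of 10 or more in which the library sets overlapped.

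Other members that lay wholly lower in *MIR21*-KO were scarce. miR-4461 had 5.07, 7.84 and 3.95 in Ctrl against 1.01, 0.505 and 2.21 in *MIR21*-KO, a log2 fold change of -1.59 (standard error 0.43, adjusted p = 0.226 with limma). miR-3176, given above, had a log2 fold change of -1.19 (standard error 0.37, adjusted p = 0.331 with limma), and of -0.0083 when scaled to the total of all miRNAs (adjusted p = 0.989). miR-4671-3p had 5, 6 and 11 reads in Ctrl against 4, 5 and 1 in *MIR21*-KO, where 1 read counts for less. Its values were 1.34, 1.62 and 1.55 against 0.288, 0.361 and 0.130. miR-5000-3p had values of 2.67, 1.89 and 2.26 in Ctrl against 1.80, 1.30 and 0.260 in *MIR21*-KO. DESeq2 called miR-4461 (adjusted p = 0.0394), miR-3176 (adjusted p = 0.0120) and miR-4671-3p (adjusted p = 0.0483), and limma did not. miR-4671-3p reached the threshold in Ctrl alone and so had to lie lower, which leaves its p-value without weight. The remaining 2 wholly lower were miR-3200-3p and miR-3944-3p.

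The 6 members that lay wholly higher in *MIR21*-KO had mean values of 0.910 to 3.59. miR-3661 had values of 1.07, 0.811 and 0.847 in Ctrl against 3.75, 3.03 and 1.82 in *MIR21*-KO, a log2 fold change of 0.99 (standard error 0.34, adjusted p = 0.371 with limma). It lies opposite *PPP2CA*, which encodes a catalytic subunit of protein phosphatase 2A. miR-3129-5p, in an intron of the collagen gene *COL5A2*, had 2.40, 1.08 and 1.83 in Ctrl against 4.25, 5.70 and 3.38 in *MIR21*-KO. miR-3129-3p from the same hairpin had 2.40, 4.60 and 1.55 in Ctrl against 5.26, 3.17 and 3.51 in *MIR21*-KO, which overlapped. miR-3131, in an intron of the hedgehog ligand gene *IHH*, had 0.534, 0.811 and 0.988 in Ctrl against 1.51, 1.88 and 2.34 in *MIR21*-KO. miR-4429 had 2, 3 and 5 reads in Ctrl against 27, 27 and 9 in *MIR21*-KO. The others were miR-4804-5p and miR-3128. These 6 differences rest on 1 to 24 reads per Ctrl library, and none passed the test across all miRNAs. miR-3131, miR-4429 and miR-4804-5p reached the threshold in *MIR21*-KO alone and so had to lie higher.

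miR-4429 reached the threshold in the *MIR21*-KO libraries alone and so had to lie higher there. Its direction therefore does not show that it moves with its seed relatives. Of these, miR-320d was higher in every *MIR21*-KO library (3.74, 6.76 and 6.77 in Ctrl against 18.2, 16.0 and 7.41). For miR-320b the values were 61.2, 108 and 182 in Ctrl against 560.5, 414 and 154 in *MIR21*-KO, which overlapped. Those of miR-320c overlapped too, with 7.74, 21.6 and 38.1 in Ctrl against 139, 96.6 and 32.1 in *MIR21*-KO. The log2 fold changes were 0.66 for miR-4429 (adjusted p = 0.454 with limma), 1.09 for miR-320d (adjusted p = 0.447) and 1.62 for miR-320b (adjusted p = 0.427). The 4 near-identical sequences could receive each other's reads, and how the counting treated such reads is not given in the sources used here.

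For most abundant members the library sets differed more than the conditions. miR-3158-3p had values of 629, 700.4 and 75.4 in Ctrl against 125, 106 and 533 in *MIR21*-KO. miR-7706 had 593, 488 and 27.5 in Ctrl against 80.1, 80.4 and 668 in *MIR21*-KO. miR-4746-5p had 123.9, 97.6 and 4.37 in Ctrl against 6.99, 6.85 and 66.4 in *MIR21*-KO. In each of the 3 the highest values were those of Ctrl 1, Ctrl 2 and *MIR21*-KO 3, and each condition held both high and low libraries. Their log2 fold changes were -0.74 (standard error 1.005), -0.30 (standard error 1.32) and -1.32 (standard error 1.35), with adjusted p of 0.789, 0.938 and 0.719 from limma.

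miR-4664-3p, in the same order of libraries, had 85.5, 94.1 and 6.07 against 7.71, 6.27 and 45.8. miR-3615 had 329, 318 and 87.5 in Ctrl against 221, 173 and 530.3 in *MIR21*-KO. miR-4326 had 209, 180 and 82.1 in Ctrl against 116, 81.9 and 251 in *MIR21*-KO. These too were highest in the first set, and for miR-3615 and miR-4326 the gap was smaller than for miR-3158-3p. miR-3909 had 46.7, 25.1 and 12.1 in Ctrl against 20.3, 11.9 and 99.3 in *MIR21*-KO, and miR-6842-3p had 37.9, 35.1 and 4.94 in Ctrl against 18.2, 12.5 and 78.9 in *MIR21*-KO. For both the highest value was in *MIR21*-KO 3.

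miR-4521 went the other way, with 45.4, 37.8 and 600.1 in Ctrl against 115, 107 and 20.5 in *MIR21*-KO. Its reads were 170, 140 and 4253 in Ctrl against 1597, 1480 and 158 in *MIR21*-KO. Ctrl 3 alone held most of its signal, and the log2 fold change came to -0.67 (standard error 1.16, adjusted p = 0.824 with limma), or 0.61 without Ctrl 3. Another member low in the first set was miR-5001-3p, with 1, 0 and 25 reads in Ctrl against 50, 48 and 1 in *MIR21*-KO. It reached the threshold in the second set alone and so had to be low in the first.

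**Figure D3:**
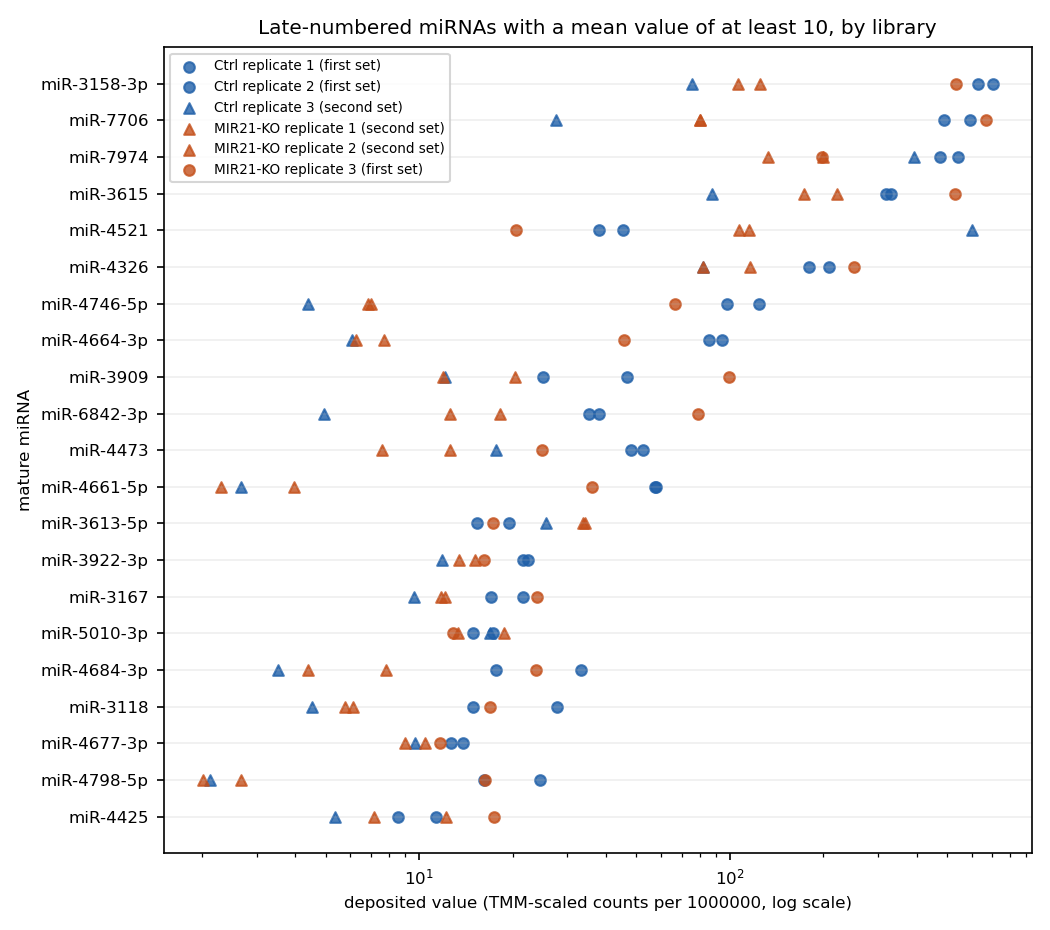
Deposited values (x axis, log scale) of the 21 late-numbered miRNAs whose mean value was 10 or more (y axis, most abundant at the top), 1 point per library, with circles for the first library set, triangles for the second, blue for Ctrl and orange for *MIR21*-KO. In 16 of the 21 all circles lie to the right of all triangles, miR-4521 and miR-3613-5p show the reverse, and miR-7974 is parted by colour. Of all 332 tested miRNAs at this level, 26.5% lay wholly lower in the second set and 39.8% wholly higher.

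Over all members, 44 (41.1%) lay wholly lower in the second set than in the first, where 22.1% of all tested miRNAs did. Wholly higher in the second set were 9 (8.41%), where 35.1% of all tested did. The sets did not overlap in 53 members (49.5%), against 57.2% of all tested, but most tested miRNAs are also those that defined the sets. The lower share was 15.9% of members against 7.25% of all tested when scaled to the total of all miRNAs, 37.4% against 18.1% when scaled to the total without miR-21, 47.7% against 25.0% with median-of-ratios size factors and 55.1% against 31.6% when centred on the median. Of the 44, 10 reached the threshold in the 3 libraries of the first set alone and so had to differ at the deposited scaling, as had 1 of the 9 in the second set. Among members with a mean value of 10 or more, where no member depends on the threshold in this way, 16 of 21 lay wholly lower. No test was made of the difference between members and all tested miRNAs, since miRNAs of the same library are not independent.

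The set difference was of similar size in both conditions for many members. In 28 members the second set was more than 2-fold lower within Ctrl and within *MIR21*-KO alike, where 14.5% of all tested miRNAs were, and in 5 it was more than 2-fold higher, where 22.2% of all tested were. miR-7706 was lower by 4.24 on the log2 scale within Ctrl and by 3.04 within *MIR21*-KO. The counts by number were unequal, and their difference was not tested. In the second set 13 of the 24 members numbered from 6000 on lay wholly lower and none wholly higher, while 14 of the 41 numbered below 4000 lay wholly lower and 5 wholly higher. The threshold has a part here too, since members that reached it in the first set alone had to lie lower. From 6000 on these were miR-6515-3p, miR-6716-3p, miR-6753-3p, miR-6772-3p and miR-6777-3p, and below 4000 miR-3690. Replicates within a set and condition lay much closer. Over the members the chi-square statistic divided by its degrees of freedom was 3.41 between Ctrl 1 and 2 and 4.01 between *MIR21*-KO 1 and 2, whereas it was 59.8 to 94.2 for pairs of the same condition from different sets.

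**Figure D4:**
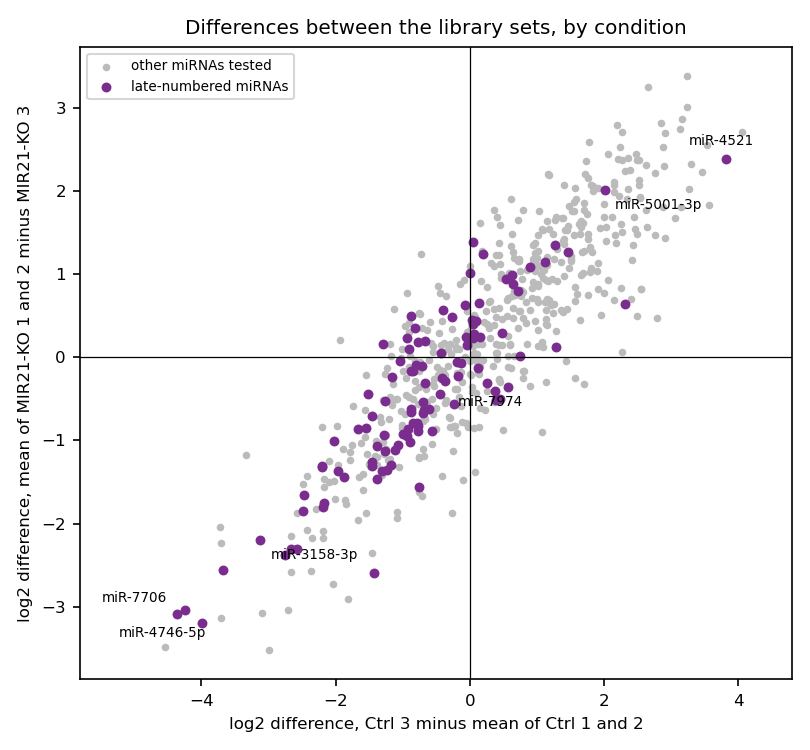
Log2 difference between the second and the first library set within Ctrl (x axis, Ctrl 3 minus the mean of Ctrl 1 and 2) and within *MIR21*-KO (y axis, mean of *MIR21*-KO 1 and 2 minus *MIR21*-KO 3), with 1 point per miRNA and late-numbered miRNAs in purple. miR-7706 lies at the lower left with -4.24 and -3.04, miR-4521 lies at the upper right, and the lower left of the plot holds many late-numbered miRNAs with 44 of 107 wholly lower in the second set.

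With the set as a second term in the limma fit, 6 members were called higher in *MIR21*-KO (11.7% of all tested were) and 6 lower (6.43% of all tested were). Higher were miR-6842-3p, miR-3928-3p, miR-3615, miR-3934-5p, miR-7706 and miR-3661, and lower were miR-7974, miR-4521, miR-4461, miR-4671-5p, miR-3176 and miR-4671-3p. The last of these had to lie lower, since it reached the threshold in Ctrl alone. miR-7974 had a log2 fold change of -1.31 (adjusted p = 0.00296 with limma), close to the value without the term. miR-7706 had 0.91 (adjusted p = 0.0454 with limma), opposite in sign to the value without the term, and miR-6842-3p had 1.27 (adjusted p = 0.00958 with limma). miR-4521 had -1.70 (adjusted p = 0.00231 with limma). The sets were read from the same libraries, so these p-values are not independent of the split. Within the first set the comparison is *MIR21*-KO 3 against Ctrl 1 and 2, and within the second *MIR21*-KO 1 and 2 against Ctrl 3. The difference was above 0 within both sets for 45 members, below 0 within both for 25 and of opposite sign for 37. Of all tested miRNAs, 42% were above 0 within both, 26.5% below and 31% of opposite sign, close to the shares of the members.

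The labelled cell type was checked by marker miRNAs. Of 12 epithelial marker names, the miR-200 family among them, 8 were tested, and their values summed to 2169 to 3312 in Ctrl and to 956 to 1798 in *MIR21*-KO. The endothelial marker miR-126 summed to 991 to 3658 in Ctrl and to 674 to 2446 in *MIR21*-KO over its arms. Blood and immune cell markers, 3 of 11 tested, summed to 93.7 to 241 over all libraries. Muscle markers, 1 of 6 tested, reached at most 71.4, the liver marker miR-122 at most 140.8 and the neuronal marker miR-124 at most 0.811. Their part in the levels of the late-numbered miRNAs was not tested.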

How the data were processed

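Small RNA of 3 Ctrl and 3 *MIR21*-KO samples of A549 cells was sequenced, with TRIZOL extraction and libraries and sequencing by Novogene. The paper's methods name a NEXTflex kit or Novogene for small RNA libraries, and a Dresden facility or Novogene for the sequencing. They do not say which samples took which route. Per the labels, the submitters' processing notes name cutadapt 1.14, Bowtie2 2.3.2, SAMtools 1.5, featureCounts 1.5.3, edgeR 3.18.1 and hg38. The miRNA annotation and the treatment of reads that fit several places are not given in the sources used here. The authors deposited 1 signal value per miRNA and library, which are TMM-scaled counts per 1000000, in 2813 rows, beside columns of a comparison of their own (fold change, p-value, FDR), which were not used.

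Rows of one name were summed. Within a tolerance of 0.001, 100% of the deposited values came out as a whole number of reads; the read counts so recovered were used for arms, shares and for edgeR 4.0.16 and DESeq2 1.42.0 as alternatives. TMM removes a change shared by most miRNAs, and PCR duplicates could not be identified. The value of 1 read differs between libraries, so a low value is less precise in Ctrl 1 and 2. limma 3.58.1 (R 4.3.3; lmFit and eBayes with trend) was run on log2(value + 1) for the 607 miRNAs that reached 1 in 3 or more libraries, with two-sided p-values adjusted by Benjamini-Hochberg over all 607. The fit was also run on simulated counts that had no split into library sets, so that run does not cover data split in this way.

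The members and lists were chosen with earlier results of these data known. Members named are the 10 most abundant, the 5 largest rises and falls among those whose conditions do not overlap, those with both arms found, with a shared seed, beside another tested miRNA gene or at the threshold. Other members were named after their values were seen, as were the splice-site search, the arm balances and the overlap counts by scaling and without each library. Sequences and positions came from RefSeq (GRCh38.p14) and gene contexts from GENCODE 29. Tables and plots were made in Python 3.11.15 (scipy 1.17.1, pandas 2.3.3, matplotlib 3.10.9).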

Additional observations from a re-analysis of the deposited data

How the results depend on the processing

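No late-numbered miRNA was called with pseudocounts of 0.1 or 10, without a filter, at a mean value of at least 10, with rows left unsummed, at an adjusted p under 0.01, with edgeR or without any 1 library. Scaling to the total of all miRNAs called 24 higher, beside 32.3% of all tested, which was also the scaling that moved the median of all tested miRNAs most, to 1.34. The library-set term called 6 higher and 6 lower, and DESeq2 4 lower. The median log2 fold change of the members was 0.81 with total scaling and -0.39 with DESeq2, and ran from -0.33 to 0.03 without each library. That of all tested miRNAs was 0.050 without a filter, 0.019 with scaling to the total without miR-21, -0.024 with median centring and -0.025 with DESeq2. The summed member values in *MIR21*-KO were 67.3% of Ctrl, 171% with total scaling, and 43.7% to 81.3% without each library. With a value of 1 in all 6 libraries 49 late-numbered miRNAs remained, and with a value of 10 in at least 3 of 6, 22. For these changes the cause was not tested, beyond the fewer miRNAs that the stricter thresholds leave.

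The replicate block (replicate number as a term) called 0 members and left the median at -0.09. Replicates of the same number did not deviate together (r = -0.79, -0.60 and -0.88), so the numbers do not pair the libraries.

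Of 352 alternative values of 19 named fold changes, 311 kept direction and side of the threshold. A further 17 passed the threshold without a change of sign, and 24 changed sign whether or not they passed it. miR-7706 with the library-set term did both (adjusted p = 0.0454 with limma). With total scaling miR-3158-3p was at 0.64, miR-7706 at 1.07, miR-4521 at 0.69, miR-4326 at 1.25 and miR-5000-3p at 0.14. With the library-set term miR-3158-3p was at 0.15, miR-7706 at 0.91 and miR-4326 at 0.31, and with median centring miR-3909 was at -0.035. Without each library in turn miR-7706 ran from -1.72 to 0.47, miR-4326 from -0.57 to 0.23, miR-4521 from -1.37 to 0.61, miR-3909 from -0.62 to 0.86, miR-3615 from -0.24 to 0.71 and miR-6842-3p from -0.45 to 0.95. Counts of 1 to 10 reads limit most scarce members, and a value of 0 allows up to 3 reads.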
